A study of Mus musculus with 18 samples.

Results

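The genes described here are 43 genes of mitosis and of the G2 to M transition of the cell cycle, in microglia of the embryonic mouse hippocampus. They were taken by name from a list, which was chosen with earlier results of these data known. A probe set on the array that names 1 gene only was found for 42 of the 43. Where a gene had several, the one with the highest mean over all arrays was used. All 42 passed the filter on dim genes, among 11630 genes tested of 18194 genes with such a probe set. Ccnb1, which encodes cyclin B1, was the exception and has no value here. The genes fall into 7 roles: cyclins, kinases and phosphatases of mitotic entry (9 genes measured), the chromosomal passenger complex (3), kinetochore and spindle checkpoint (9), ubiquitin ligase parts (3), spindle motors and microtubule-binding proteins (9), chromosome structure (6) and cytokinesis (3).

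RNA came from cells sorted for CX3CR1-GFP out of pooled hippocampi of C57BL/6 embryos at E17.5, and per the design text the RNA was pooled per pregnant dam. A p-value here therefore measures the spread between such pools. The sources used here do not say whether 1 or both copies of Cx3cr1 carry GFP, and the sex of the embryos is recorded as unknown. The labels carry 4 calendar years, numbered here 1 to 4 in order of time, and what was done in each (sorting, hybridization or another step) they do not say. The UT group (6 arrays) is untreated wild type (DAP12+/+), with 2 arrays of label year 3 and 4 of label year 4. The DAP12KO group (4 arrays) is untreated and carries the DAP12-/- mutation, and all its arrays are of label year 4. The LPS group (4 arrays) is wild type from dams with inflammation caused by lipopolysaccharide, a bacterial endotoxin, and the PBS group (4 arrays) is wild type and the PBS control of that inflammation. The sources used here do not give the dose and time of the injections. Both groups hold 1 array of year 1, 2 of year 2 and 1 of year 4. Tyrobp is the gene of DAP12, an adaptor through which receptors such as TREM2 signal in microglia.

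A cell enters mitosis when cyclin-dependent kinase 1 is joined by cyclins A and B and freed of inhibitory phosphates by CDC25 phosphatases. Aurora and Polo-like kinases then drive spindle assembly, checkpoint proteins at the kinetochores hold back anaphase until every chromosome is attached, and the anaphase-promoting complex with its activator CDC20 marks cyclin B and securin for destruction. Most of these genes are transcribed only late in the cell cycle: in resting cells the DREAM complex, which contains the MuvB core, holds them down, and in G2 the MuvB core works with B-MYB and FOXM1 to turn them on. The DNA elements tied to this timing are the CHR (cell cycle genes homology region), bound through the MuvB subunit LIN54, and CCAAT boxes bound by NF-Y. Microglia seed the brain early in development and multiply there during embryonic and early postnatal life, so their mitotic genes are read as a measure of how many of them are cycling.

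Promoter windows from RefSeq (GRCm38.p6), from 250 bases before to 50 bases after a transcription start, were available for 37 of the 43 genes. Aurkb, Ccna2, Cdc25c, Kif20a, Smc4 and Tpx2 had none. The CHR was searched as TTTGAA or TTCGAA, the NF-Y box as CCAAT and the E2F element as TTTNNCGC, each on both strands and with overlaps allowed. A CHR match stood in the windows of 28 of 37 genes (75.7%), against 21.7% of 27025 genes of the table. A CCAAT match stood in 30 of 37 (81.1%), against 41.1%. Both in the same window were found for 25 of 37 (67.6%), against 8.61%. E2F matches were few, in 4 of 37 (10.8%) against 5.93%. Counted over all windows of a gene, 21 mitotic genes had at least 2 CCAAT matches and 12 at least 3. Prc1 is among the 21 only because its overlapping windows hold the same match. Over all windows, the median position of the first base was -66 for CCAAT and -5 for CHR, counted from the transcription start. These matches are letters in a window and not sites shown to be bound.

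Below are the 200 bases before the start of the 5 genes of a fixed set of 10 mitosis markers that hold both matches there, shown because these 5 carry many of the values that follow. They are printed 5′ to 3′ on the gene's strand, with CHR, CCAAT and E2F matches on either strand in capitals. Mki67 lies at chr7:135716380-135716579 (minus strand), Top2a at chr11:99024190-99024389 (minus strand), Cdk1 at chr10:69352913-69353112 (minus strand), Cdc20 at chr4:118437344-118437543 (minus strand) and Ube2c at chr2:164769729-164769928 (plus strand).
Mki67: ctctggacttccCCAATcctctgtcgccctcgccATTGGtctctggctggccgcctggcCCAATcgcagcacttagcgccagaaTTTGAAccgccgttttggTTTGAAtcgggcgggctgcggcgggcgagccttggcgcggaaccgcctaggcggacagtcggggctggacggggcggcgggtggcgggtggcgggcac
Top2a: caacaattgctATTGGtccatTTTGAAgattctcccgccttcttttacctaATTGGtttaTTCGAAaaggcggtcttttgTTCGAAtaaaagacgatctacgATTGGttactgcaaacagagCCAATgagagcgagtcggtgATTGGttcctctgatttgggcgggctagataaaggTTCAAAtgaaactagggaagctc
Cdk1: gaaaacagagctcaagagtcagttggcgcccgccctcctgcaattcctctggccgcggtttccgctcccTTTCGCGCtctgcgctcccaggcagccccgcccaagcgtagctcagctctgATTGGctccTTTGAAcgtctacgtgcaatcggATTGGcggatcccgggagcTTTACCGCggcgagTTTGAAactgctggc
Cdc20: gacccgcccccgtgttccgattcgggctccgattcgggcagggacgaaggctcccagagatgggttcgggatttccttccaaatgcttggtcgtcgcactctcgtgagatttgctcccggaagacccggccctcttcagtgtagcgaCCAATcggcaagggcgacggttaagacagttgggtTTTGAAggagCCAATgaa
Ube2c: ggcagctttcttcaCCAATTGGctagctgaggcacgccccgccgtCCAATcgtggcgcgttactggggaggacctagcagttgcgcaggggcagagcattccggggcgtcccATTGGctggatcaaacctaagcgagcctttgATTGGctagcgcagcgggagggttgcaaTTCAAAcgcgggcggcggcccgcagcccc
The Top2a stretch holds 4 CHR and 5 CCAAT matches, and that of Ube2c 1 CHR and 5 CCAAT, with 2 of the CCAAT matches overlapping on opposite strands. Mki67 has 2 CHR and 3 CCAAT matches, Cdc20 has 1 CHR and 2 CCAAT, and Cdk1 has 2 of each together with 2 E2F matches. Bub1 and Plk1 also hold both, but their CHR match lies after the start and is not printed.

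**Figure D1:**
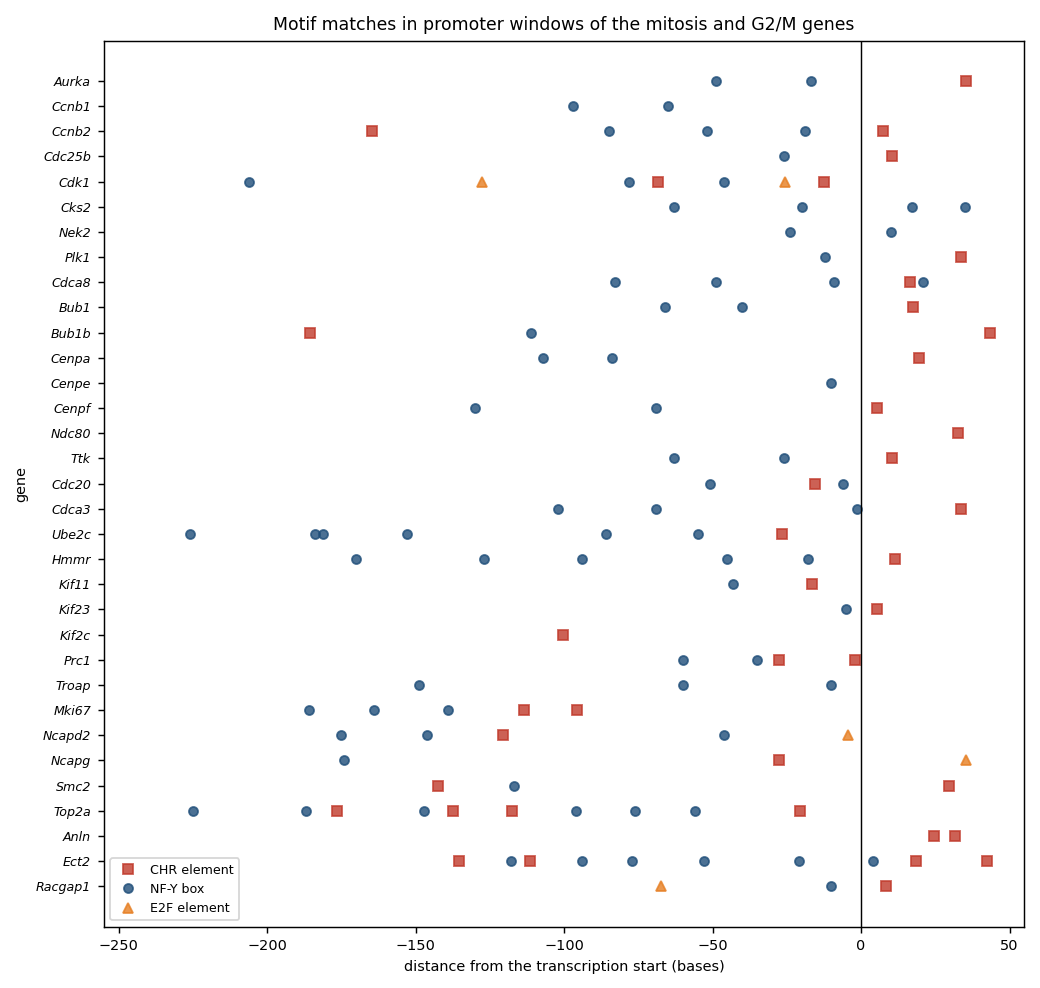
Positions of CHR, NF-Y (CCAAT) and E2F matches on either strand in the promoter windows, by gene, on an axis of distance from the transcription start in bases. Genes without a match or without a window are not drawn. CCAAT matches lie mostly before the start, while CHR matches lie on both sides of it.

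The label check and the purity of the pools come first. Tyrobp, the gene of the mutation, lay between 13.75 and 14.23 on the DAP12KO arrays and between 14.29 and 14.55 on the UT arrays (log2 values), a difference of -0.60 ± 0.13 (SE; limma adjusted p = 0.301). The groups did not overlap, but the probe set stayed bright in DAP12KO, and whether it lies in the deleted part was not tested. Microglia markers such as Cx3cr1 were above the filter threshold (log2 2.49, called near the floor below it) on all 18 arrays. Their mean was 11.28 and 11.47 on the PBS arrays of year 2 and 12.38 to 13.40 on the other 16. On those same 2 arrays the mean of neural progenitor and radial glia markers was 10.63 and 10.52, against at most 8.53 elsewhere. Neuron markers behaved alike, with 10.17 and 10.13 against at most 8.59. The mean of the mitotic genes on these 2 arrays was 9.21 and 8.65, within the range of the other PBS and LPS arrays for the first and below it for the second. Neural progenitors divide too, and their part in the mitotic signal of any array was not tested. The log2 difference between the 3′ and 5′ probe sets of Gapdh, a sign of RNA or amplification quality, was 2.01 to 3.33 in years 1 and 2 and 0.89 to 2.77 in years 3 and 4. The same difference for beta-actin was small in both, at -0.16 to 0.32 and -0.21 to 0.11.

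Mitotic transcripts were measurable in every pool. Of the 42 genes, 40 lay above the threshold on all 18 arrays (95.2%), against 77.6% of all tested genes. The exceptions were Troap, a spindle-associated protein whose probe set was near the floor on 11 arrays, and Cdc25c, a phosphatase that activates CDK1, near the floor on the PBS array of year 1 alone. In bulk RNA, fewer cycling cells and less mitotic RNA per cycling cell cannot be told apart. Mki67, whose protein Ki-67 coats mitotic chromosomes and is the usual proliferation marker, was the steadiest of the genes. It ran from 13.33 to 14.17 over all arrays, and its residual SD of 0.18 was the lowest of the 42. At the other end, Cdc25c, Hmmr (a microtubule-binding protein of the spindle) and Kif20a (a kinesin of the late spindle) had residual SDs of 1.41, 1.28 and 1.25. The median residual SD was 0.73 for the mitotic genes and 0.83 for all tested genes.

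**Figure D2:**
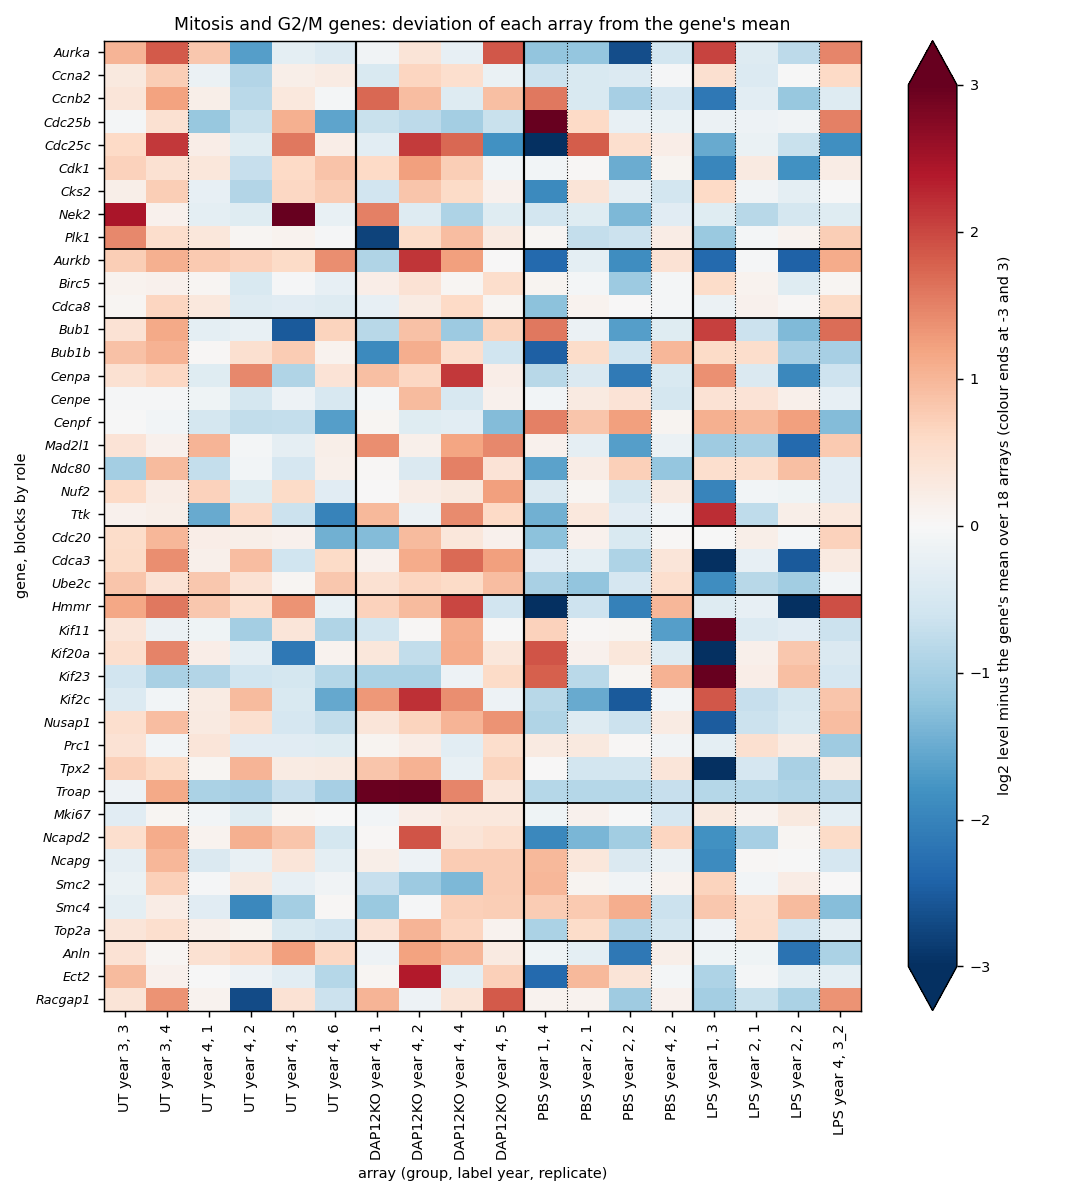
Deviation of each of the 42 genes from its own mean over 18 arrays (colour, log2), with genes in blocks by role and arrays by group, label year and replicate. The UT arrays of year 3 and the DAP12KO arrays are mostly red, with 31 and 36 and with 24 to 32 of 42 genes above their mean.

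The number of genes above their own 18-array mean sums up each pool. It was 31 and 36 of 42 on the UT arrays of year 3, and 24, 16, 21 and 16 on those of year 4. The DAP12KO arrays had 24, 31, 30 and 32. PBS arrays had 16 in year 1, 22 and 11 in year 2 and 18 in year 4, and LPS arrays had 17, then 15 and 13, then 20. High counts thus occurred in untreated wild type as well as in DAP12KO. Over all tested genes the share above the own mean was 35.8% to 58% per array. It was 58% and 54.6% on the UT arrays of year 3, and 41.9%, 52.2%, 46.2% and 42.3% on the DAP12KO arrays.

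Loss of DAP12 was compared with untreated wild type. Since all DAP12KO arrays are of year 4, the fitted difference rests on the 4 UT arrays of that year, and the 2 of year 3 add to the estimate of spread only. No gene was called (limma, Benjamini-Hochberg adjusted p under 0.05: 0 of 11630, 0%), and so none of the 42. At an unadjusted p under 0.05, 6 mitotic genes were higher in DAP12KO, against 2.98% of all tested genes, and 0 were lower, against 2.5%. In all, 35 of the 42 lay higher in DAP12KO and 7 lower, with a median difference of 0.39 log2. Over all tested genes 51.6% were higher and the median was 0.02.

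Troap had the largest difference. It read 6.16, 7.80, 4.65 and 3.54 on the DAP12KO arrays, 2.236, 2.193, 2.493 and 2.193 on the UT arrays of year 4, and 3.03 and 4.33 on those of year 3. All DAP12KO arrays were above all UT arrays of year 4, but the lowest was below 1 of the year 3 arrays. The year 4 UT values are all near the floor, which leaves the size of the difference uncertain. With those values set to the threshold it was 3.04 log2. The fitted value was 3.26 ± 0.66 (SE, adjusted p = 0.301), and it ran from 2.50 to 3.92 with 1 array left out. Without DAP12KO replicate 5 it was 3.92 and called (adjusted p = 0.0286). Another Troap probe set did not pass the filter, and with the mean of both the difference was 1.82 (adjusted p = 0.425).

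Kif2c and Nusap1 were next by p. Kif2c, a kinesin that takes apart microtubule ends and frees wrong attachments, read 11.02, 11.91, 11.12 and 9.57 in DAP12KO and 9.96, 10.67, 9.26 and 8.18 on the UT arrays of year 4. The highest UT array exceeded the lowest DAP12KO array, and the difference was 1.39 ± 0.56 (adjusted p = 0.854). With the mean of its probe sets, of which 4 passed the filter, it was 0.058. Nusap1, which bundles spindle microtubules at chromosomes, read 10.11, 10.41, 10.76 and 11.08 in DAP12KO against 10.01, 10.22, 9.23 and 9.01. Its difference was 0.97 ± 0.41 (adjusted p = 0.854), with every DAP12KO array above the UT mean of year 4 and 1 UT array inside the DAP12KO range. It turned to -0.014 with the mean of its probe sets. The other 3 at an unadjusted p under 0.05 were picked after their values were seen. They were Ttk, the checkpoint kinase MPS1, at 1.59 ± 0.72, Racgap1, a part of the centralspindlin complex of cytokinesis, at 1.47 ± 0.66, and Smc4, a condensin subunit, at 0.89 ± 0.42. Their other passing probe sets gave 0.94 for Ttk, 0.75 for Racgap1, and 0.16 and -0.03 for Smc4.

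By role, the spindle motors and microtubule-binding proteins had 9 of 9 higher in DAP12KO (median 0.57). Their mean per array was 9.36 to 9.91 in DAP12KO and 8.44 to 9.02 in UT of year 4, which did not overlap, but 9.30 and 9.51 in UT of year 3, which did. Without Troap these were 10.01 to 10.49, 9.22 to 9.87, and 10.09 and 10.16. Of the kinetochore and checkpoint genes, 8 of 9 were higher (median 0.50), with Bub1b, the kinase-like checkpoint protein BUBR1, as the exception. The chromosome structure genes had 5 of 6 higher (0.43) and the ubiquitin ligase parts 3 of 3 (0.27). Cytokinesis genes had 2 of 3 higher (1.05), the passenger complex 2 of 3 (0.36) and the entry cyclins, kinases and phosphatases 6 of 9 (0.19). The whole set of 7 that were lower was Cdc25b, Plk1, Nek2, Aurkb, Bub1b, Smc2 and Anln.

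None of the fixed markers of proliferation had an unadjusted limma p under 0.05. Top2a and Bub1 lay above the median difference of 0.39 over the mitotic genes, and the other fixed markers lay below it. Mki67 read 13.77, 14.05, 14.17 and 14.16 in DAP12KO, and 13.77, 13.49, 13.91 and 13.84 in UT of year 4. The lowest DAP12KO array lay among the UT values, and the difference was 0.29 ± 0.14 (adjusted p = 0.902). Top2a, topoisomerase II alpha, which untangles sister chromatids, read 10.35, 10.94, 10.57 and 10.04 against 10.08, 10.02, 9.46 and 9.35. All 4 DAP12KO arrays were above the UT mean of year 4, 1 UT array was above the lowest of them, and the difference was 0.75 ± 0.38 (adjusted p = 0.908), or 0.40 with the mean of its probe sets. Another passing Top2a probe set gave 0.48, and a further one at the floor (mean 2.20) shrinks that mean.

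Cdk1 and Ccna2 encode the kinase and the cyclin A2 that open mitosis. In Cdk1 the DAP12KO arrays read 10.23, 10.86, 10.36 and 9.55, and the UT arrays had a lowest value of 8.94, a median of 10.15 and a highest of 10.49, with a difference of 0.35 ± 0.54. In Ccna2 the DAP12KO arrays read 10.95, 12.05, 11.91 and 11.21 and UT had 10.52, 11.62 and 12.16, with a difference of 0.28 ± 0.31, or 0.12 with the mean of its probe sets. Both groups overlapped widely in either gene.

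Plk1, the Polo-like kinase, and Aurkb, the kinase of the passenger complex, turned on 1 DAP12KO array. Plk1 read 3.58 on DAP12KO replicate 1 and 6.90, 7.28 and 6.62 on the others, against UT values of 6.31 (lowest), 6.57 (median) and 7.79 (highest). Its difference of -0.37 ± 0.70 became 0.47 without that array. Aurkb read 8.26 on replicate 1 and 11.31, 10.40 and 9.17 on the others, against 9.74, 9.91 and 10.56. Its difference of -0.24 ± 0.64 became 0.27 without replicate 1.

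Bub1, a checkpoint kinase of the kinetochore, and Cdc20, the activator of the anaphase-promoting complex, turned on single arrays of UT or DAP12KO. Bub1 read 7.002, 8.72, 6.74 and 8.49 in DAP12KO and 5.31 (lowest), 7.94 (median) and 8.98 (highest) in UT. The difference of 0.50 ± 0.71 became -0.14 without UT year 4 replicate 3 and 0.17 with the mean of its probe sets. Cdc20 read 8.77, 11.01, 10.41 and 10.19 in DAP12KO and 8.62, 10.25 and 11.05 in UT, and its difference of 0.27 ± 0.48 became -0.13 without UT year 4 replicate 6, -0.04 without DAP12KO replicate 2 and -0.008 with the mean of its probe sets. Ube2c, the ubiquitin-conjugating enzyme of the complex, read 13.10, 13.30, 13.24 and 13.58 in DAP12KO and 12.72, 13.28 and 13.48 in UT, a difference of 0.12 ± 0.22, or -0.04 without UT year 4 replicate 3. None of these 3 genes separated the groups.

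The lowest p among lower genes belonged to Smc2, Bub1b and Nek2. Smc2, the partner of SMC4 in condensin, read 9.89, 9.50, 9.23 and 11.35 in DAP12KO against 10.34 (lowest), 10.51 (median) and 11.30 (highest) in UT, a difference of -0.57 ± 0.39. With the mean of all its probe sets it was 0.93, in the opposite direction. Bub1b differed by -0.57 ± 0.75, or -0.13 with the mean of its probe sets. Nek2, a centrosomal kinase, differed by -0.61 ± 0.81, by -0.29 with that mean, and by 0.25 without UT year 4 replicate 3, where it read 9.33. Another passing Nek2 probe set gave -0.54, and probe sets at the floor (means 2.21 and 2.19) shrink the mean for this gene.

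**Figure D3:**
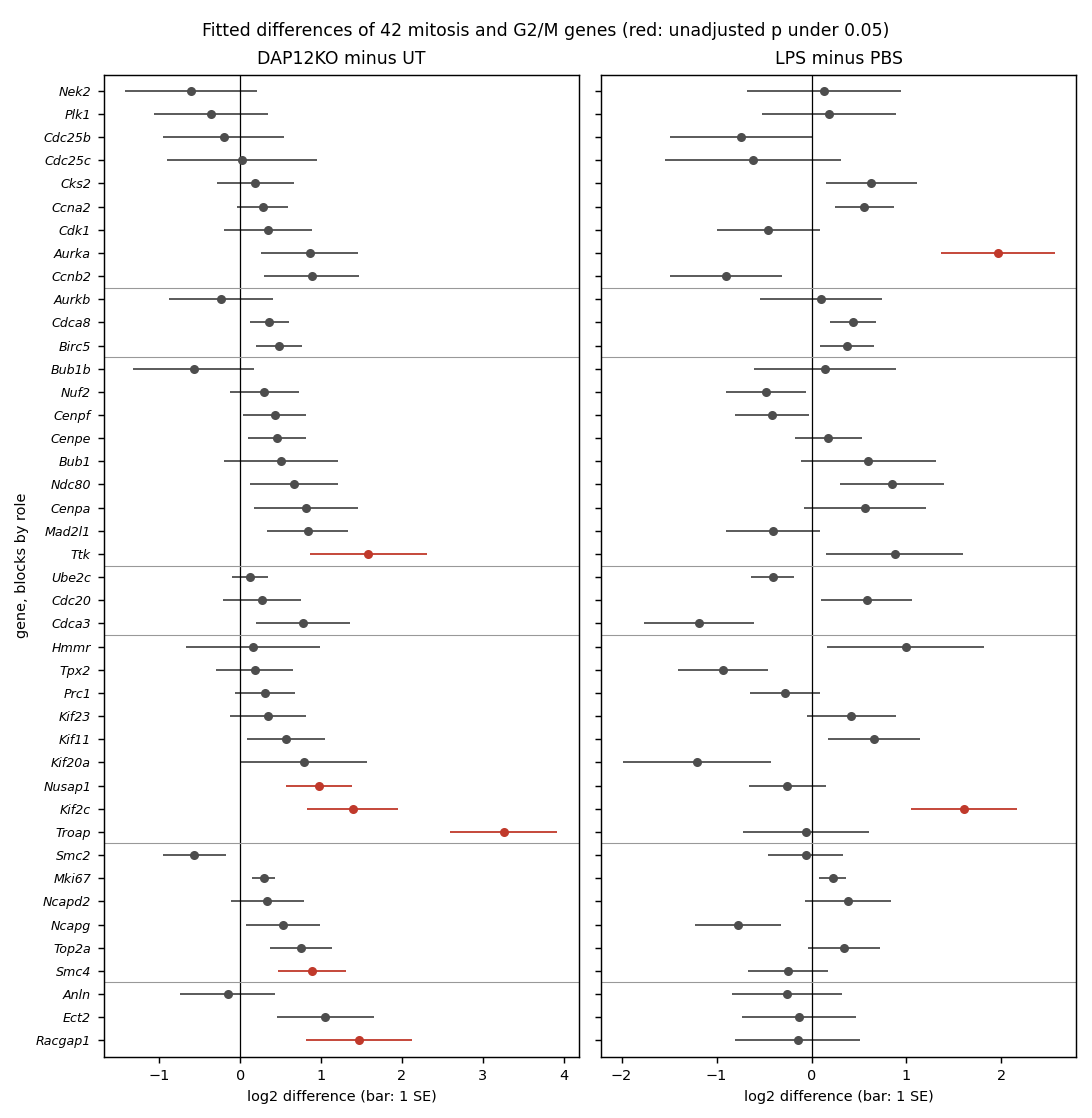
Fitted log2 differences with 1 SE for the 42 genes, in blocks by role, for DAP12KO minus UT (left) and LPS minus PBS (right). On the left 35 points lie above 0 and on the right 22, and red marks an unadjusted p under 0.05.

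The choice of untreated arrays moved the size of the DAP12KO difference. The UT arrays of year 4 lay below those of year 3 in 38 of 42 mitotic genes, with a median of -0.58 log2, against -0.15 over all tested genes, of which 39.2% were higher in year 4. The largest gaps were in Aurka (-1.81), Racgap1 (-1.57) and Kif20a (-1.51), and the 4 genes not lower were Mki67, Kif2c, Kif23 and Anln. Against the year 3 arrays DAP12KO had a median difference of 0.01, with 22 of 42 higher. The mean over the 42 genes was 9.67 and 9.93 in UT of year 3, 9.06 to 9.32 in UT of year 4 and 9.36 to 9.95 in DAP12KO. Without Troap, near the floor in UT of year 4, the mean was 9.44 on DAP12KO replicate 1 and 9.49 on the highest UT array of year 4. The medians over the 42 genes also overlapped, at 9.76 to 10.30 in DAP12KO and 8.97 to 9.96 in UT of year 4. The mean over all 42 genes thus separated DAP12KO from UT of year 4 but not from UT of year 3. By the mean without Troap and by the median, DAP12KO overlapped the UT arrays of either year. These comparisons were chosen after the values were seen and are given as a description.

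Complete separation from the UT arrays of year 4 was rare. All 4 DAP12KO arrays lay above all 4 UT arrays of year 4 in 2 of 42 genes (4.76%), Troap and Birc5 (survivin, of the passenger complex, 10.44 to 10.90 against 9.92 to 10.44), against 1.2% of all tested genes. Birc5 was almost a tie, with 10.443 on the lowest DAP12KO array and 10.438 on the highest UT array of year 4. In Troap all UT arrays of year 4 were near the floor. All lay below in 0 of 42, against 1.18%. None of the 42 had all DAP12KO arrays above all 6 UT arrays, against 0.224%. Of 8 border-associated macrophage markers 6 were lower in DAP12KO, with list means of 8.46 to 9.18 in DAP12KO and 8.48 to 11.04 in UT, and of 23 neuron markers 19 were lower, with means of 5.67 to 6.64 and 5.63 to 7.32. Their part in the result was not tested.

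**Figure D4:**
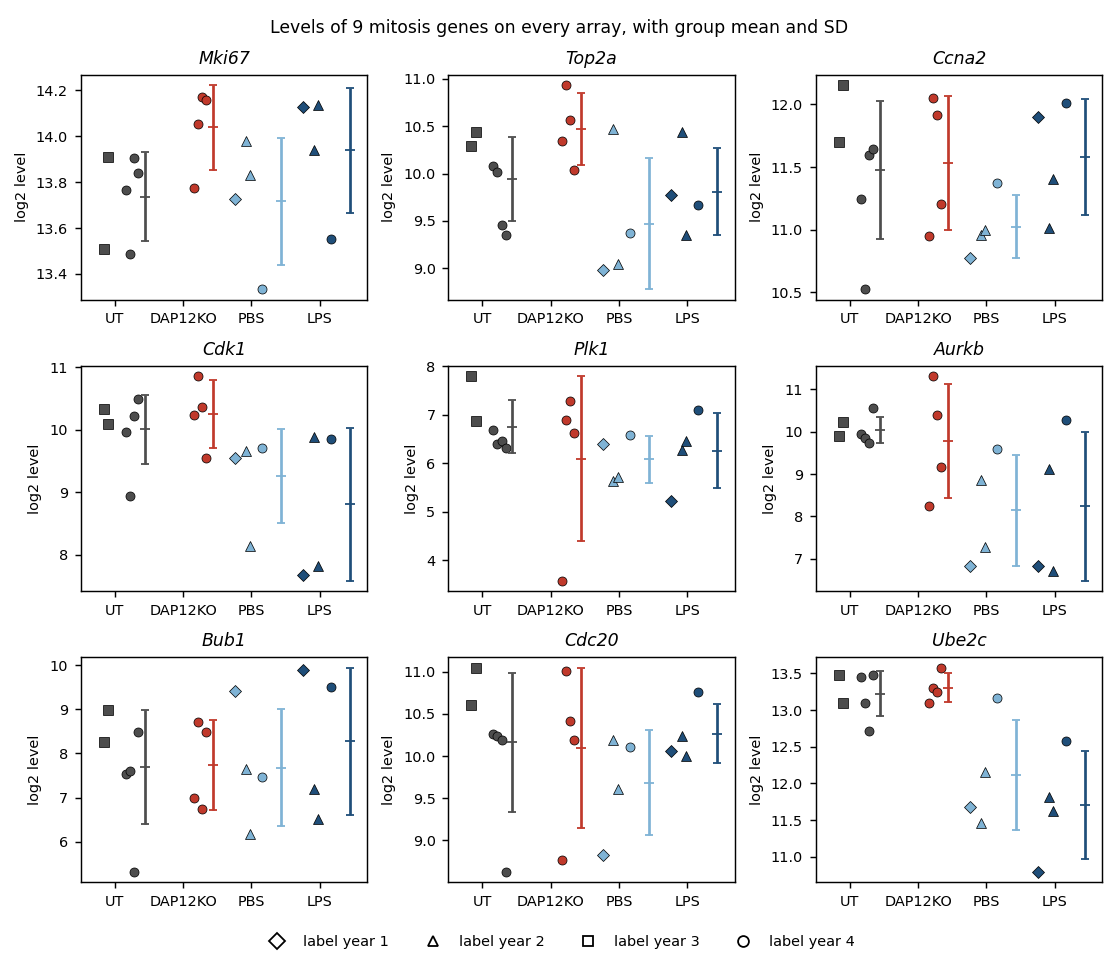
Log2 levels of 9 mitosis genes on every array, by group (x axis) and label year (marker shape), with the group mean and SD as bars to the right of the points. Ube2c is lower on all arrays of years 1 and 2 than on any other, and in Mki67 the groups overlap within less than 1 log2 unit.

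Maternal inflammation was compared with its PBS control, with label year in the fit. Of all tested genes 11 were called (0.0946%), and 0 of the 42 mitotic genes. At an unadjusted p under 0.05, 2 mitotic genes were higher with LPS, against 3.47% of tested genes, and 0 were lower, against 8.98%. The 42 divided into 22 higher and 20 lower with a median difference of 0.11 log2, against -0.12 over all tested genes. With each array centred on its median, the median of all genes moved from -0.12 to 0.15, and 29 of the 42 were then higher, with a median of 0.37. The main median lay between -0.07 and 0.14 with 1 array left out, being negative without PBS replicate 2 (-0.07) or LPS replicate 1 (-0.03) of year 2, and was -0.01 with the mean of all probe sets. No mitotic gene had all LPS arrays above all PBS arrays, against 0.602% of tested genes, or all below, against 1.36%. Of the microglia markers 27 of 27 were higher with LPS (median 0.40), and of the neural progenitor markers 15 of 17 were lower, and their part in the result was not tested. Without both PBS arrays of year 2 the median over the mitotic genes was 0.06, and again 0 were called. The 11 genes became 0 to 120 with 1 array left out (120 without the PBS array and 119 without the LPS array of year 4, 77 and 79 without those of year 1) and 826 with array weights, each time with 0 mitotic genes among them.

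Aurka and Kif2c had the lowest p. Aurka, the Aurora A kinase of the spindle poles, read 11.21 with LPS and 8.01 with PBS in year 1, 8.81 and 8.41 with LPS and 8.03 and 6.53 with PBS in year 2, and 10.65 against 8.64 in year 4. LPS was the higher in each year, by 3.21, 1.32 and 2.002 log2, although 1 PBS array of year 4 exceeded an LPS array of year 2. The fitted difference was 1.96 ± 0.60 (adjusted p = 0.211), and 2.60 ± 0.81 without both PBS arrays of year 2. Kif2c read 11.58 with LPS and 8.88 with PBS in year 1, 9.03 and 9.201 against 8.22 and 7.21 in year 2, and 10.54 against 9.64 in year 4. It was higher with LPS by 2.70, 1.41 and 0.90, and the fit gave 1.61 ± 0.56 (adjusted p = 0.262). With the mean of all probe sets the differences were 1.01 ± 0.50 for Aurka (adjusted p = 0.388) and 0.83 ± 0.42 for Kif2c (adjusted p = 0.394). Cdca8, borealin of the passenger complex, came next, at 0.44 ± 0.24, or 0.046 with the mean of its probe sets.

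Among the genes that were lower with LPS, the lowest p belonged to Cdca3, Tpx2 and Ube2c. Cdca3, the trigger of mitotic entry that helps destroy WEE1, read 6.35 against 9.48 in year 1, 9.59 and 7.31 against 9.53 and 8.90 in year 2, and 10.10 against 10.20 in year 4. Its fitted difference was -1.19 ± 0.58 (adjusted p = 0.416), or -0.40 with the mean of its probe sets. The other Cdca3 probe sets failed the filter and lay at the floor (mean 2.19). They shrink that mean, which is therefore no check on the difference. Tpx2, which activates Aurora A on spindle microtubules, read 6.80 against 10.02 in year 1, while the year 2 and year 4 differences were -0.19 and -0.13. Its fitted value was -0.93 ± 0.47. In both genes the gap was largest in the single pair of year 1. Ube2c read 10.79 against 11.68 in year 1, 11.82 and 11.62 against 11.46 and 12.15 in year 2, and 12.58 against 13.16 in year 4, a difference of -0.41 ± 0.22 (adjusted p = 0.462).

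Mki67 read 14.13 with LPS and 13.73 with PBS in year 1, 13.94 and 14.14 against 13.98 and 13.83 in year 2, and 13.55 against 13.33 in year 4. LPS was higher by 0.40, 0.13 and 0.22 log2, and the fitted difference was 0.22 ± 0.14 (adjusted p = 0.532). Ccna2 read 11.90 against 10.77 in year 1, 11.01 and 11.41 against 10.95 and 11.00 in year 2, and 12.01 against 11.37 in year 4, with a fitted difference of 0.56 ± 0.31 (adjusted p = 0.482), or 0.36 with the mean of its probe sets. Cdc20 read 10.06 against 8.83, then 10.23 and 9.997 against 10.19 and 9.61, then 10.77 against 10.11, with 0.58 ± 0.48. In all 3 genes every LPS array was above the PBS mean of its year. The same held for Aurka, Birc5, Kif2c and Ndc80, which links kinetochores to microtubules, making 7 of 42 (16.7%). The share over all tested genes was not counted, so this number is a description only.

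Other markers differed by year or pool. Top2a read 9.77 against 8.98 in year 1, 10.44 and 9.35 against 10.47 and 9.04 in year 2, and 9.66 against 9.38 in year 4, a fitted difference of 0.34 ± 0.38. Cdk1 read 7.68 against 9.55 in year 1, 9.89 and 7.82 against 9.66 and 8.14 in year 2, and 9.85 against 9.70 in year 4. Its difference of -0.45 ± 0.54 became 0.02 without the year 1 pair, so that 1 pair set its sign.

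Plk1 read 5.22 against 6.39 in year 1, 6.28 and 6.45 against 5.62 and 5.71 in year 2, and 7.08 against 6.57 in year 4, a difference of 0.18 ± 0.70, or -0.33 without both PBS arrays of year 2. Bub1 read 9.89 against 9.41, then 7.20 and 6.51 against 7.65 and 6.18, then 9.50 against 7.46, with 0.60 ± 0.71, or -0.16 with the mean of its probe sets. Aurkb read 6.83 on both arrays of year 1, 9.12 and 6.72 against 8.86 and 7.29 in year 2, and 10.28 against 9.59 in year 4, with 0.10 ± 0.64, or -0.002 with the mean of its probe sets. For Aurkb and Cdk1 the gap between the arrays of year 2 within each group was larger than the gap between the groups at the same number.

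By label year, the median LPS difference of the mitotic genes was 0.15 in year 1, 0.02 in year 2 and 0.14 in year 4, with 23, 22 and 23 of 42 higher. In 9 genes LPS was higher in all 3 years: Ccna2, Aurka, Birc5, Cdca8, Ndc80, Cdc20, Kif2c, Top2a and Mki67. In 3 it was lower in all 3: Ube2c, Cdca3 and Tpx2. Neither count was made over all tested genes, so both are a description only. The size of single differences depended on the year. In year 1, with 1 array a group, 15 genes were over 1 log2 higher and 12 over 1 log2 lower, against 48.5% of all tested genes past that size in either direction. In year 2 the counts were 2 and 1 (29.5% of all genes) and in year 4 they were 4 and 5 (30.7%). The most extreme was Kif20a, lower by 5.29 log2 with LPS in year 1 and differing by 0.25 and -0.05 in years 2 and 4.

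In the pools of year 2, mitotic genes differed more between the replicate numbers than between the treatments. Arrays numbered 1 and 2 differed in the same direction in LPS and in PBS for 32 of 42 genes (76.2%), against 69.8% of all tested genes. The median size of the difference between numbers was 0.48 log2 in the mitotic genes and that between LPS and PBS of the same number 0.33, whereas over all genes the order was the other way, 0.44 and 0.57. In 8 of 42 genes (19%) number 1 was over 1 log2 higher in both groups, and of all tested genes 906 (7.79%) were past that size in the same direction in both. Hmmr was higher in number 1 by 3.22 (LPS) and 1.42 (PBS), Aurkb by 2.40 and 1.57, Anln, a scaffold of the cleavage furrow, by 2.11 and 1.86, and Cdk1 by 2.07 and 1.52. The others were Cenpa, the centromeric histone, Mad2l1, a checkpoint protein that holds back CDC20, Bub1b and Top2a. Whether a shared number stands for a shared day, litter or preparation is unknown, and what sets the pools apart was not tested. This comparison was chosen after the values were seen.

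Label year itself touched a few mitotic genes. An F test of the year term, added after the values were seen, passed for 10.9% of all tested genes (1270 of 11630) and for 2 of 42 mitotic genes (4.76%), Ube2c (limma adjusted p = 0.0165) and Kif11, the kinesin-5 that pushes spindle poles apart (0.0309). Ube2c was 10.79 to 12.15 on the 6 arrays of years 1 and 2 and 12.58 to 13.58 on the 12 of years 3 and 4, with no overlap. Cenpf, a large kinetochore protein, ran the other way without overlap, at 10.46 to 11.14 and 7.98 to 9.72, with an adjusted p of 0.0525. These were 1 of 42 genes each way (2.38%), against 1.83% of all tested genes higher in years 3 and 4 and 0.946% lower. Years 1 and 2 hold LPS and PBS arrays only, and most arrays of years 3 and 4 are UT or DAP12KO. Year and group are thus partly mixed in this split. The 3′ to 5′ difference of Gapdh was mostly higher in years 1 and 2, with overlapping ranges, while that of beta-actin was small in all years. Their part in these values was not tested.

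**Figure D5:**
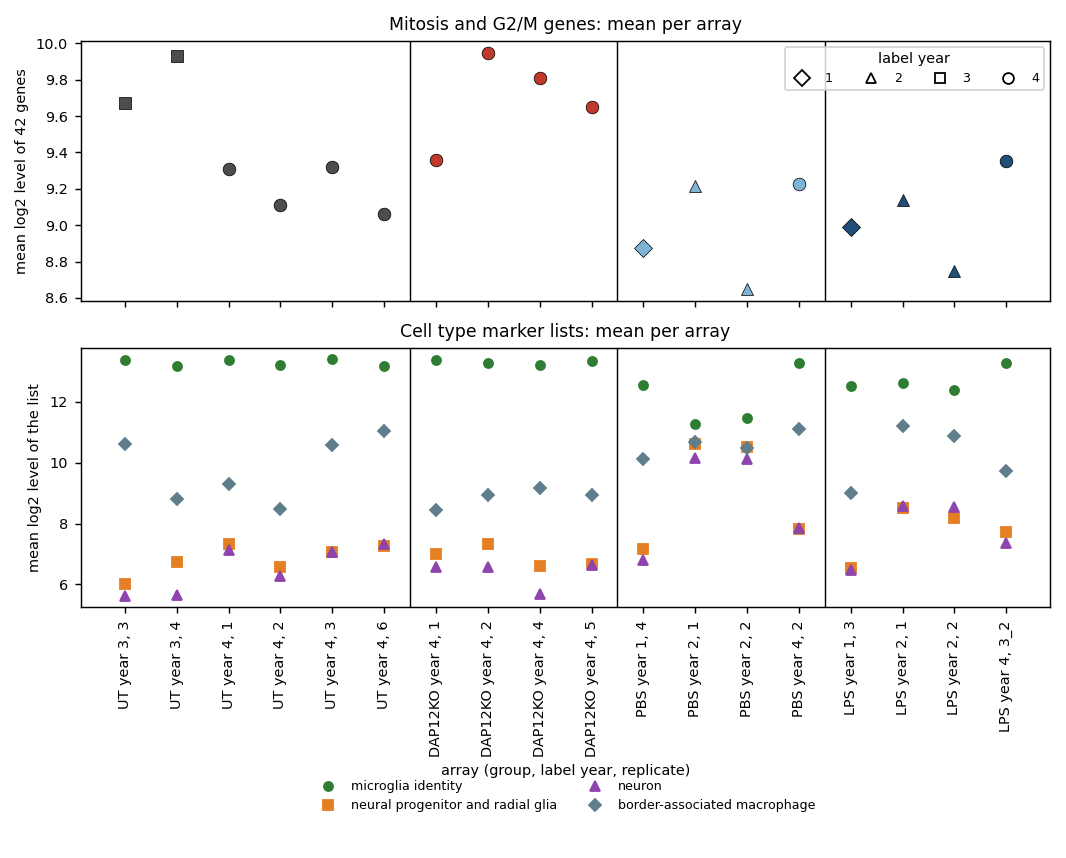
Mean log2 level of the 42 genes on each array (top, marker shape by label year) and of 4 cell type marker lists (bottom), by group, label year and replicate. The DAP12KO arrays lie between 9.36 and 9.95 and the UT arrays of year 4 between 9.06 and 9.32, which overlap without the floor gene Troap (9.44 on the lowest DAP12KO array, 9.49 on the highest UT array of year 4), and neural markers stand out on the 2 PBS arrays of year 2.

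The difference between the LPS response and the DAP12KO response was tested in the same fit. No gene was called (limma, 0 of 11630, 0%, with 943 at an unadjusted p under 0.05), and so none of the 42, of which 4 had an unadjusted p under 0.05. The median over the mitotic genes was -0.26 log2, against -0.17 over all tested genes, that is, lower for LPS minus PBS than for DAP12KO minus UT. The lowest p lay with Troap (-3.32 ± 0.94, adjusted p = 0.50), Cdca3 (-1.97 ± 0.82) and Ccnb2, cyclin B2 (-1.79 ± 0.83), all lower for LPS. Troap read 2.27 to 2.33 with LPS and 2.32 to 2.50 with PBS, at or close to the floor. Its value therefore reflects the DAP12KO difference (3.26), and no response to LPS could be measured. In Ccnb2 LPS minus PBS was -3.73 in the single pair of year 1, but 0.005 and 0.11 in years 2 and 4. With 1 array left out the Ccnb2 value ran from -2.18 to -0.85. Of those higher for LPS, the first by p were Aurka (1.11 ± 0.85), Smc2 (0.51 ± 0.56) and Hmmr (0.83 ± 1.17). With the mean of all probe sets Smc2 and Hmmr turned to -0.53 and -0.27, and Troap and Cdca3 were -1.85 and -0.655, both shrunk by probe sets that failed the filter. Whether the mitotic genes answer differently to LPS and to DAP12 loss was therefore not shown.

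Other genes of the pathway were described by whole lists. Of 63 tested other mitotic genes, 43 were higher in DAP12KO (median 0.17) and 30 with LPS (median -0.05), and none was called. In DAP12KO the lowest p belonged to Tacc3, a spindle protein (0.97 ± 0.25, adjusted p = 0.566), and Sgo1, shugoshin, the guardian of centromeric cohesion (1.79 ± 0.61). With LPS they were Ckap5, a microtubule polymerase (-0.74 ± 0.30, adjusted p = 0.334), and Espl1, separase (1.51 ± 0.72). Of 16 subunits and partners of the anaphase-promoting complex, 10 were higher in DAP12KO (median 0.12) and 6 with LPS (-0.14). The first by p were Anapc7 (0.82 ± 0.49) and Cdc27 (-0.73 ± 0.47) in DAP12KO, and Cdc23 (-1.61 ± 0.68) and Anapc5 (-0.80 ± 0.37) with LPS. None of these passed the test.

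Of 23 regulators that act through the CHR, CCAAT and E2F elements, 12 were higher in DAP12KO (median 0.04) and 8 with LPS (-0.30), and none was called. Foxm1, the activator of G2 and M genes, averaged 9.08 ± 1.06 (SD, n = 4) in DAP12KO and 7.12 ± 1.44 (SD, n = 6) in UT. Its fitted difference, which rests on the UT arrays of year 4 only, was 2.12 ± 0.81 (adjusted p = 0.831). Mybl2, which encodes B-MYB, averaged 5.12 ± 2.47 and 2.996 ± 0.61, with a fitted difference from UT of year 4 of 1.91 ± 0.88 (adjusted p = 0.902). With LPS the first by p were Lin54, the CHR-binding subunit (-2.49 ± 0.97, adjusted p = 0.312), and Nfyb, a subunit of NF-Y (-0.78 ± 0.50).

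The brakes and the earlier phases of the cycle were also described by list. Of 14 CDK inhibitors and p53 brakes, 9 were higher in DAP12KO (median 0.13) and 6 with LPS (-0.10). Cdkn2b, first by p in DAP12KO, had means near the floor in UT (2.35), PBS (2.34) and LPS (2.23) and passed the filter through DAP12KO alone (3.36 ± 1.38, SD, n = 4), so no difference is given for it. It is still counted among the 9 and in the median of 0.13, which are therefore a description only. Btg1 came next (-0.45 ± 0.25), and with LPS the first were Btg2 (0.75 ± 0.36) and Cdkn1b (-0.72 ± 0.38). Of 39 genes of G1/S and DNA replication, 28 were higher in DAP12KO (median 0.22) and 21 with LPS (0.08). Mcm10, a replication initiation factor, had 2.82 ± 0.91 and Mcm7, of the replicative helicase, 0.66 ± 0.33 in DAP12KO. With LPS, Orc1, the largest subunit of the origin recognition complex, had 2.33 ± 0.63 (adjusted p = 0.169) and Dut, the dUTPase, -1.04 ± 0.36 (adjusted p = 0.262). No gene of either list was called in either comparison.

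Probe sets of a gene did not always go the same way. The 42 genes had 95 probe sets, 84 of which passed the filter, and 28 genes had more than 1 that passed. Where the mean of all probe sets of a gene is given, it also takes in those that failed the filter, which shrinks the difference. All passing probe sets of a gene had the same sign in 15 of the 28 genes for LPS minus PBS and in 13 for DAP12KO minus UT. Over the 84 probe sets, 59 were higher in DAP12KO (median 0.34) and 48 higher with LPS.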

How the data were processed

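Per the labels' protocols, RNA of sorted microglia was amplified (Ovation Pico WTA v2 kit), labelled with biotin (Encore kit) and hybridized to Affymetrix Mouse430_2 arrays. The authors deposited log2 values for 45101 probe sets on 18 arrays. RMA is named in the submitters' processing notes, without a version. The values were used as deposited. Of the probe sets 34958 name 1 gene, and a gene was represented by the one with the highest mean. Genes with a mean under the 40th percentile of probe sets (log2 2.49) were left out. All arrays were fitted with limma 3.58.1 in R 4.3.3, with group and label year as terms (11 residual degrees of freedom), an intensity trend and Benjamini-Hochberg adjustment over 11630 genes, at a threshold of 0.05, two-sided. The number of arrays limits the precision. Motifs were counted with Python 3.11.15.

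The members and lists were chosen with earlier results of these data known. Named were Mki67, Top2a, Ccna2, Cdk1, Plk1, Aurkb, Bub1, Cdc20 and Ube2c, every gene past the threshold, the 3 lowest p per direction and comparison, and the 2 lowest p of each pathway list. Same-numbered arrays deviated alike in LPS and PBS of year 2 (Pearson r = 0.531 across genes) but not in DAP12KO and UT (-0.011 and 0.008). The latter does not bear on year 2, where the arrays may be paired. The main fit did not take the numbers as pairs. An alternative fit with a replicate block did, and it called 0 genes for LPS minus PBS. Alternatives changed the year term, arrays, filter, probe sets, weights, trend, scaling, floor and replicate block.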

Additional observations from a re-analysis of the deposited data

Results flagged for a closer look

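Single arrays stood far from the rest of their group in 5 of 88 groups of mitotic genes and arrays looked at, and chance alone gives about 1 in 20 groups. Cdc20 read 8.62 on UT year 4 replicate 6, where the nearest UT array read 10.19. Cdk1 read 8.94 on UT year 4 replicate 2, against a nearest value of 9.96, and 8.14 on PBS year 2 replicate 2, against 9.55. Cdca8 read 11.31 on PBS year 1 replicate 4, against 12.49. Troap read 2.50 on PBS year 4 replicate 2, against 2.33, with both values close to the floor.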

How the results depend on the processing

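Of 1353 values under alternative settings, 1280 kept their direction and their side of the threshold and 25 reversed, and the cause was not tested. The 11 genes called for LPS minus PBS became 0 without the year term, with only the 2 groups in the fit, with the replicate block, with only genes above the 60th percentile, with centred arrays and without UT year 3. They became 1 without a filter, 3 without the trend, 3 with floored values, 5 without year 2, 6 with mean probe sets and 826 with array weights. For the difference between the responses 1 gene was called without a filter, with mean probe sets or without the trend, and 11 with array weights. Centring gave medians of 0.37 for LPS minus PBS and 0.053 for the difference. Leaving out 1 array gave 0 to 120 genes for LPS minus PBS, with 77 without PBS year 1, 79 without LPS year 1, 120 without PBS year 4 and 119 without LPS year 4. It gave 0 to 6 genes for DAP12KO minus UT, 0 to 1 of the mitotic genes (Troap), 0 to 18 genes for the difference and medians of -0.47 to -0.10 for the difference and -0.07 to 0.14 for LPS minus PBS, which was -0.01 with mean probe sets. In 92 alternatives for the mitotic genes called, 1 was above 0.

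Without the year term Cdc20 in DAP12KO was -0.067. With mean probe sets, Cdc20 was -0.008, Nusap1 -0.014 and Smc2 0.93 in DAP12KO, Aurkb -0.002 and Bub1 -0.16 with LPS, and Smc2 -0.53 and Hmmr -0.27 in the difference. Kif2c was 0.058 and Troap 1.82 in DAP12KO under that setting, and Aurka 1.01 and Kif2c 0.83 with LPS. Plk1 with LPS was -0.33 without both PBS arrays of year 2 and without year 2. With 1 array left out, the ranges in DAP12KO were -0.14 to 0.92 for Bub1, -0.036 to 0.22 for Ube2c, -1.13 to 0.25 for Nek2, -0.13 to 0.71 for Cdc20, -0.76 to 0.47 for Plk1 and -0.75 to 0.27 for Aurkb. With LPS they were -0.95 to 0.018 for Cdk1 and -0.33 to 0.63 for Aurkb, and in the difference -0.20 to 1.78 for Hmmr. The fit of only the 2 groups gives no value for the difference. The replicate block put 0 mitotic genes past the threshold in either comparison. Signal near the floor limits Troap, and 22.4% of tested genes had at least 1 array there.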
